A study of Homo sapiens with 6 samples.

Results

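The aldo-keto reductases AKR1C1, AKR1C2, AKR1C3, AKR1B1 and AKR1B10 were described in Cal33, an established oral squamous cell carcinoma line. Entries were taken by gene symbol from one deposited table of 14136 gene entries, and all 5 symbols were found, each on 1 entry and with a value in every library. Total RNA came from 6 libraries. The 3 Vector libraries came from cells stably carrying the empty pSin-EF2 lentiviral vector, and the 3 CES2 libraries from cells stably carrying pSin-EF2 with FLAG-tagged CES2, which encodes carboxylesterase 2. Both groups were infected with lentivirus packaged in 293FT, which are human embryonic kidney cells, and both were selected with puromycin. The labels do not say whether separate infections or cultures lie behind the libraries of a group, so the spread between them may be technical. The members were chosen with the CES2 against Vector values of these libraries known. Their differences between the groups are therefore given as a description, with no test.

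Aldo-keto reductases are soluble enzymes that use NADPH to reduce aldehydes and ketones to alcohols. The AKR1C enzymes act on steroids and prostaglandins as well as on reactive carbonyls from lipid peroxidation, while AKR1B1 and AKR1B10 reduce sugar aldehydes, lipid aldehydes and retinal. In squamous epithelium and its carcinomas, AKR1B10 and the AKR1C genes are widely used as readouts of NRF2, a transcription factor activated by electrophiles and oxidants.

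Values are read as TPM, transcript abundance scaled to the same total in each library. Levels of different genes compare only as far as the transcript lengths and the assignment of shared reads behind them hold. TPM keeps no sequencing depth, and the depth behind each value is unknown. The CES2 transcript was at 45.6, 41.9 and 44.9 TPM in Vector 1 to 3 and at 2664, 1929 and 2294 TPM in CES2 1 to 3 (log2 fold change 5.66, standard error 0.18, adjusted p = 7.38e-06 by limma). With 3 libraries a side, an exact permutation test (two-sided) can reach no less than p = 0.1, and it gave that value. CES2 was the only gene past an adjusted p of 0.05 in the limma fit over 12210 tested genes (0.00819%). All 10 squamous epithelial markers examined, among them KRT5, KRT14 and TP63, were at 1 TPM or more in every library. Their sum ranged from 4373 to 5683 TPM in Vector and from 4302 to 5800 TPM in CES2. Of 5 fibroblast markers 1 was in the table, COL1A1, at 4.49 to 9.36 TPM in Vector and 3.89 to 10.5 TPM in CES2. Of 4 leukocyte markers 1 was in the table, CD14, below 1 TPM in every library. The 3 endothelial markers summed to 10.2 to 25.8 TPM in Vector and 11.2 to 20.5 TPM in CES2, and of these CDH5 alone reached 1 TPM in every library. The labels name no batch, but libraries of different groups resembled each other. Over the tested genes, the deviations of Vector 1 and CES2 2 from their own group means had a correlation of 0.68, and those of Vector 1 and CES2 3 one of -0.68. Deviations cancel out within a group, so the second value partly follows from the first.

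The AKR1C genes lie side by side on chromosome 10 and the AKR1B genes on chromosome 7 (GRCh38, coordinates of the transcript listed in the table). AKR1C1 (ENSG00000187134) spans 4963253 to 4983283 on the plus strand, with 9 exons in a listed transcript of 6705 bases. AKR1C2 (ENSG00000151632) spans 4987400 to 5004023 on the minus strand, with 9 exons and 3756 bases. AKR1C3 (ENSG00000196139) spans 5048789 to 5099414 on the plus strand, and its listed transcript has 6 exons and only 636 bases. AKR1B1 (ENSG00000085662) spans 134442350 to 134459142 on the minus strand of chromosome 7 with 10 exons and 1409 bases. AKR1B10 (ENSG00000198074) spans 134527592 to 134541408 on the plus strand with 10 exons and 1590 bases. Whether a TPM value belongs to the listed transcript or to all transcripts of the gene is not given in the sources used here.

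The promoter sequences show how alike the AKR1C genes are just upstream of transcription. RefSeq windows (GRCh38.p14) were available for 4 of the 5 genes, AKR1B10 being the gene without one. The 250 bases before the RefSeq start are printed on the strand of the gene, with capitals marking every match to a searched motif. The windows are chr10:4963165-4963414 (plus strand) for AKR1C1, chr10:5003858-5004107 (minus strand) for AKR1C2, chr10:5048531-5048780 (plus strand) for AKR1C3 and chr7:134459101-134459350 (minus strand) for AKR1B1.
AKR1C1: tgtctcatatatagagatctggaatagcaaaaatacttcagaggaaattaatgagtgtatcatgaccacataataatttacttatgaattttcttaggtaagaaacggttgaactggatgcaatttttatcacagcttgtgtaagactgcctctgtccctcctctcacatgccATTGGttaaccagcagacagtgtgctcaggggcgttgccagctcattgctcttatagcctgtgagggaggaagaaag
AKR1C2: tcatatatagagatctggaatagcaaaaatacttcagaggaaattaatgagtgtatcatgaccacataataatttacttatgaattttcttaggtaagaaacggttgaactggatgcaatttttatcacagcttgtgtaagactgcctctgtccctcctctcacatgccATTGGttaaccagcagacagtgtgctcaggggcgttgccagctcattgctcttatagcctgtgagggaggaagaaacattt
AKR1C3: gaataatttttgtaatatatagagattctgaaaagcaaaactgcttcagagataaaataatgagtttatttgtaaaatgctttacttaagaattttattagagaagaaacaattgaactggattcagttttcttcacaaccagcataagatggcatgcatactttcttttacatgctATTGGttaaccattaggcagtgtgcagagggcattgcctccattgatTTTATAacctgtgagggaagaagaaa
AKR1B1: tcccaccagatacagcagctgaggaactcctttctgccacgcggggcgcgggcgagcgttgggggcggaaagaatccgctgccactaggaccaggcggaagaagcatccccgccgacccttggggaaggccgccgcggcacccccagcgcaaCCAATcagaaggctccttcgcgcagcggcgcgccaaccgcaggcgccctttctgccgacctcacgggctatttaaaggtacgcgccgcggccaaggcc

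AKR1C1 and AKR1C2 were identical at 245 of 246 aligned bases of these windows, and AKR1C1 and AKR1C3 at 185 of 241. The AKR1B1 window was 68% G and C, against 40.8% for AKR1C1, 40% for AKR1C2 and 32% for AKR1C3. The motifs were searched on both strands. A CCAAT box (CCAAT) was found once in each of the 4 windows, as ATTGG on the printed strand 77 to 73 bases before the start of AKR1C1, and 11138 of 34794 promoter windows of the same length hold it. A TATA box (TATAAA, in 10.8% of windows) was found in AKR1C3 alone, on the reverse strand. The antioxidant response element core bound by NRF2 (TGACNNNGC, in 10.9% of windows) and the AP-1 site (TGACTCA, in 4.21%) had no match in these 4 windows, which says only that those letters are not there. None of the matches overlapped another. The transcripts listed for AKR1C1 and AKR1C2 start 162 and 166 bases away from the RefSeq start, inside the printed windows.

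The transcripts were compared in the same way. In the GENCODE release 29 annotation, the coding sequences of AKR1C1 and AKR1C2 were identical at 950 of 969 bases (98.0%), those of AKR1C1 and AKR1C3 at 91.8% and those of AKR1B1 and AKR1B10 at 76.8%. Of all stretches of 50 bases in the listed AKR1C2 transcript, 50.8% also occurred in a transcript of AKR1C1, and of those in the listed AKR1C1 transcript 28.3% occurred in AKR1C2. With stretches of 100 bases the shares were 31.1% and 17.2%. The listed AKR1C3 transcript, of only 636 bases, shared 10.7% of its 50-base stretches with AKR1C1. The AKR1C3 coding sequence above was taken from another transcript, so the identity and this share describe different transcripts. For AKR1B1 the share was 0% with each of the genes compared, and AKR1B10 shared 11.6% with AKR1B15 and 0% with AKR1B1. Reads from shared stretches cannot be assigned by sequence alone, so the split between AKR1C1 and AKR1C2 is uncertain, while the sum over the AKR1C genes depends less on it.

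AKR1C2, which inactivates the potent androgen dihydrotestosterone, was the most abundant of these reductases in every library. It was at 673, 155 and 278 TPM in Vector 1, 2 and 3 and at 624, 1125 and 530.0 TPM in CES2 1, 2 and 3. CES2 2 was highest, Vector 1 came next, and the groups overlapped because Vector 1 lay above both CES2 1 and CES2 3. The means were 368 ± 271 TPM for Vector and 759.7 ± 320.1 TPM for CES2 (SD, n = 3 each), and the difference in mean log2(TPM + 1), CES2 minus Vector, was 1.23. By abundance AKR1C2 stood at place 120 of 14136 entries in CES2 2 and at place 1217 in Vector 2.

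AKR1C1, which inactivates progesterone, followed the same order of libraries at a lower level. It was at 75.7, 10.5 and 21.4 TPM in Vector 1 to 3 and at 69.3, 160.2 and 38.6 TPM in CES2 1 to 3. The highest library, CES2 2, was 15.3-fold above the lowest, Vector 2, and Vector 1 again lay above CES2 1 and CES2 3. The means were 35.9 ± 34.9 TPM for Vector and 89.4 ± 63.2 TPM for CES2 (SD, n = 3 each), with a difference in mean log2(TPM + 1) of 1.50. The pooled SD of AKR1C1 within groups was 1.22 on that log2 scale, larger than in 99.2% of tested genes, against a median over tested genes of 0.31.

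AKR1C3, which makes testosterone from its androgen precursor and also acts as a prostaglandin F synthase, was at 199, 31.4 and 63.0 TPM in Vector 1 to 3 and at 110.2, 221 and 103 TPM in CES2 1 to 3. The order of the 6 libraries was the same as for AKR1C1 and AKR1C2, with Vector 1 close below CES2 2. The means were 97.9 ± 89.2 TPM and 145 ± 66.3 TPM (SD, n = 3 each), a difference in mean log2(TPM + 1) of 0.88. The pooled within-group SD of 1.03 was larger than the difference itself, and it exceeded that of 98.3% of tested genes.

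AKR1B1, the aldose reductase that turns glucose into sorbitol in the polyol pathway, varied least. It was at 80.3, 48.6 and 60.5 TPM in Vector 1 to 3 and at 87.9, 89.0 and 62.0 TPM in CES2 1 to 3, a 1.83-fold range over the 6 libraries. Vector 1 lay above CES2 3, so the groups overlapped. The means were 63.1 ± 16.0 TPM and 79.6 ± 15.3 TPM (SD, n = 3 each), a difference in mean log2(TPM + 1) of 0.34 beside a pooled within-group SD of 0.33.

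AKR1B10, which reduces retinal to retinol and detoxifies lipid aldehydes, was at 345, 108 and 145 TPM in Vector 1 to 3 and at 185, 230.4 and 198 TPM in CES2 1 to 3. Its highest library was Vector 1, and the 3 CES2 libraries all fell between Vector 3 and Vector 1. The means were 199 ± 128 TPM and 204 ± 23.6 TPM (SD, n = 3 each), a difference in mean log2(TPM + 1) of 0.21 beside a pooled within-group SD of 0.62. AKR1B10 exceeded AKR1B1 in every library, by 2.22- to 4.30-fold in Vector and by 2.1- to 3.19-fold in CES2.

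**Figure D1:**
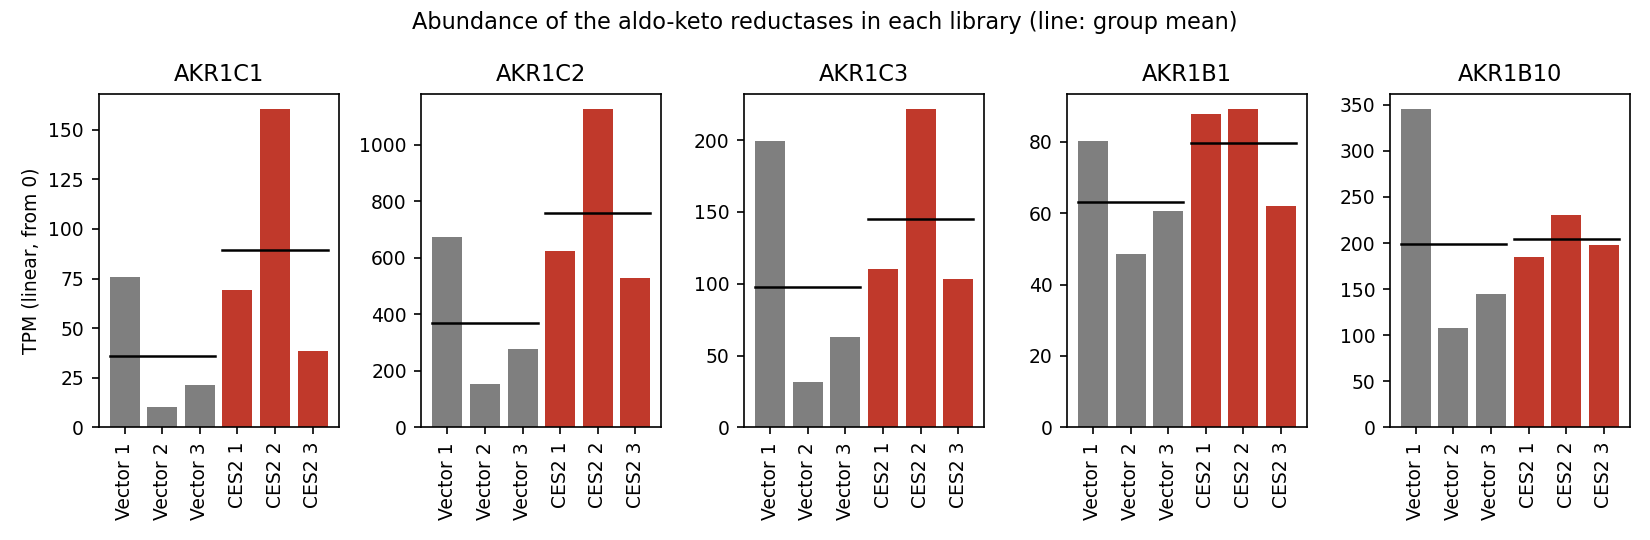
TPM on a linear axis from 0 for each reductase, with grey bars for the 3 Vector libraries, red bars for the 3 CES2 libraries and a black line at each group mean. Vector 2 was the lowest library for all 5 genes, and Vector 1 stood above at least 1 CES2 library in each panel.

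Across the 5 genes, Vector 2 was always the lowest library and Vector 3 the next lowest. CES2 2 was the highest for AKR1C1, AKR1C2, AKR1C3 and AKR1B1, and Vector 1 for AKR1B10. The difference in mean log2(TPM + 1) was above 0 for all 5 genes, as it was for 36.3% of tested genes, whose median difference was -0.06. The groups overlapped for all 5, so 0 members were among the genes whose CES2 libraries all lay above the Vector libraries (1.07% of tested genes). The direction was among the values by which the members were chosen, and nothing is read from these counts.

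The overlap of the groups rested on Vector 1 in all 5 members. Because the members were chosen from this same contrast, nothing is read from the counts that follow either. With Vector 1 left out, each of the 3 CES2 libraries lay above both remaining Vector libraries for 5 of 5 members, as it did for 2.85% of tested genes. For AKR1B1 this rested on 62.0 TPM in CES2 3 against 60.5 TPM in Vector 3. With CES2 3 left out, non-overlap held for AKR1B1 only (5.12% of tested genes), and it held for 0 members without Vector 2 (2.95%), Vector 3 (5.23%), CES2 1 (1.98%) or CES2 2 (2.59%). The size of the difference moved with Vector 1 and Vector 2. For AKR1C1 it was 2.26 on the log2(TPM + 1) scale without Vector 1, 0.89 without Vector 2 and 0.97 without CES2 2, against 1.50 with all libraries. For AKR1C2 it was 1.79 without Vector 1 and 0.73 without Vector 2. For AKR1C3 it was 1.59 without Vector 1, 0.28 without Vector 2 and 0.53 without CES2 2. AKR1B1 went from 0.53 without Vector 1 to 0.17 without Vector 2. AKR1B10 was at 0.70 without Vector 1 and changed sign, to -0.14, without Vector 2. Without both Vector 1 and CES2 2, a choice made after seeing the data, the differences were 1.72 for AKR1C1, 1.47 for AKR1C2, 1.24 for AKR1C3, 0.44 for AKR1B1 and 0.61 for AKR1B10.

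**Figure D2:**
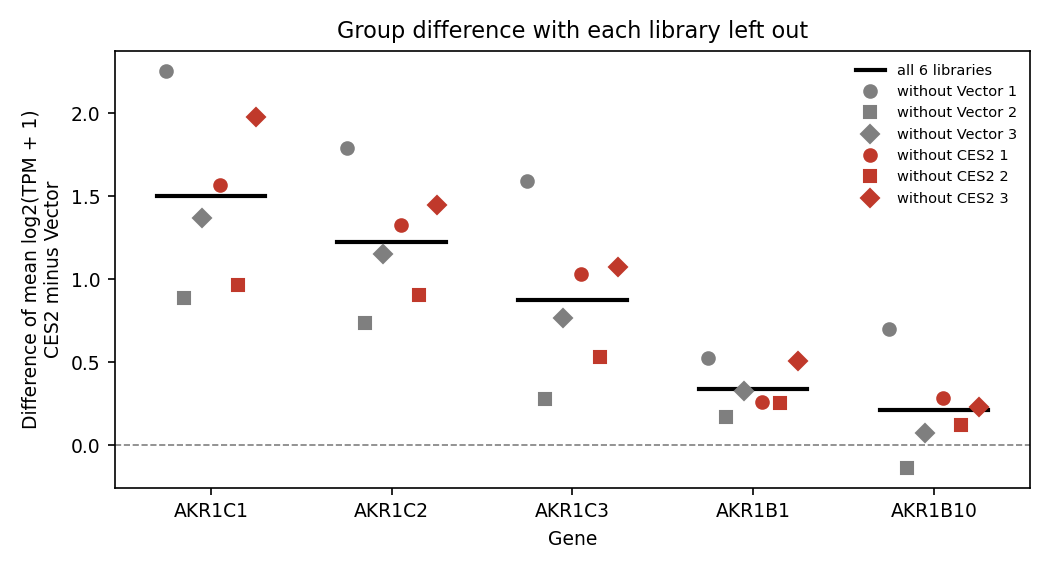
Difference in mean log2(TPM + 1), CES2 minus Vector, for each gene with all 6 libraries (black bar) and with each library left out in turn (grey symbols for Vector, red for CES2). Leaving out Vector 2 gave the smallest value for each gene and took AKR1B10 below 0, at -0.14, while leaving out Vector 1 gave the largest.

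Because reads can be shared among them, the AKR1C genes were also summed. The total was 948, 197 and 362 TPM in Vector 1 to 3 and 803, 1507 and 672 TPM in CES2 1 to 3, with the same order of libraries as the single genes. The means were 502 ± 395 TPM and 994 ± 449 TPM (SD, n = 3 each), and Vector 1 lay above CES2 1 and CES2 3. All 5 reductases together took between 0.0353% of the library total in Vector 2 and 0.183% in CES2 2.

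The make-up of the AKR1C total changed far less than its size. AKR1C2 took 71.0% to 78.9% of it over the 6 libraries, AKR1C3 13.7% to 21.0% and AKR1C1 5.34% to 10.6%. The AKR1C1 share was 7.99%, 5.34% and 5.90% in Vector 1 to 3, beside 8.63%, 10.6% and 5.75% in CES2 1 to 3. It was lowest in Vector 2, where the total was lowest, and highest in CES2 2, where the total was highest, and the groups overlapped. The mean share was 6.41 ± 1.40% in Vector and 8.34 ± 2.45% in CES2 (SD, n = 3 each), and the difference of 1.93 percentage points fell to 0.78 without CES2 2. AKR1C3 took 21.0%, 16.0% and 17.4% of the total in the Vector libraries and 13.7%, 14.7% and 15.4% in CES2. Its share was lower in each CES2 library than in any Vector library, but only by 15.4% in CES2 3 against 16.0% in Vector 2. Only the AKR1C1 share had been planned. The AKR1C3 share was not tested, has no share over all genes to set beside it, and nothing is read from it. TPM divides reads by length, and the listed lengths of AKR1C1 and AKR1C3 differ widely, so these shares depend on the transcript lengths used in the authors' processing.

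**Figure D3:**
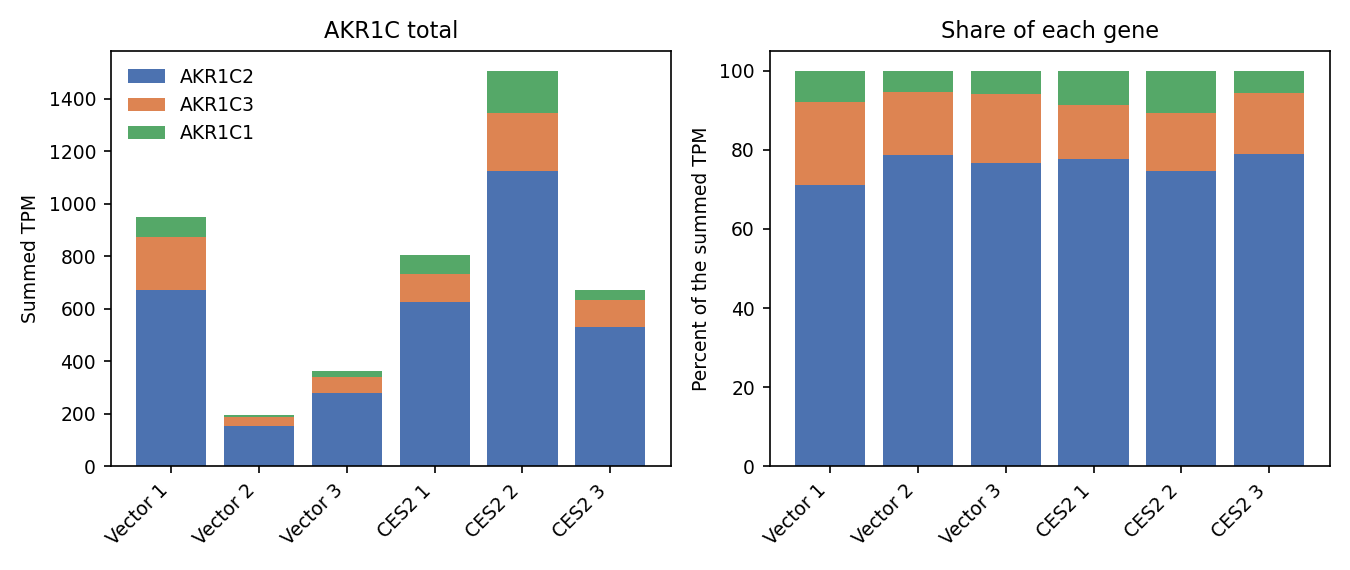
Left, summed TPM of AKR1C1, AKR1C2 and AKR1C3 in each library, stacked from 0; right, the percent of that sum from each gene. The total ranged from 197 TPM in Vector 2 to 1507 TPM in CES2 2, while AKR1C2 stayed between 71.0% and 78.9% of it.

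Likeness of profiles was measured as the root mean square difference of log2(TPM + 1) over the 6 libraries, with each gene centred on its own mean. By this measure AKR1C2 (0.36) and AKR1C3 (0.42) were the genes most like AKR1C1 among all tested genes. AKR1B10, at 0.88, was in place 264 and AKR1B1, at 0.95, in place 532, both with a smaller amplitude. AKR1C2 and AKR1C3 differed by 0.24, and AKR1B1 and AKR1B10 by 0.35. The part that shared sequence has in the likeness within AKR1C was not tested.

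The non-member genes most like AKR1C1 were CEBPD (0.44), ZP3 (0.49), SNCAIP (0.50), TNFAIP2 (0.51) and AC011498.4 (0.54). CEBPD, a transcription factor of the acute phase and inflammatory response, was at 136, 44.1 and 53.8 TPM in Vector 1 to 3 and at 137, 238 and 89.1 TPM in CES2 1 to 3. TNFAIP2, a gene induced by tumour necrosis factor, was at 758, 290.3 and 302 TPM in Vector 1 to 3 and at 699, 1381 and 469 TPM in CES2 1 to 3. Both had Vector 1 among the high libraries and Vector 2 as the lowest, as AKR1C1 did. None of these 5 genes passed the limma fit over all genes (adjusted p = 1 for each).

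The genes most like AKR1B1 were ZFP36L1 (0.073), ZSWIM5 (0.079), LNP1 (0.081), PKIB (0.085) and NFIL3 (0.090). ZFP36L1, an RNA-binding protein that speeds the decay of AU-rich messages, was at 101, 51.6 and 67.8 TPM in Vector 1 to 3 and at 98.6, 99.0 and 70.8 TPM in CES2 1 to 3. None of these passed the limma fit either (adjusted p = 1 for each). These genes were picked by their profiles. The within-group SD of AKR1B1 was near the median over tested genes, larger than that of 53.2% of them. AKR1B10 was only in place 4365 by likeness to AKR1B1. The measure counts amplitude as well as pattern, and AKR1B10 ranged 3.20-fold over the 6 libraries against 1.83-fold for AKR1B1.

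The neighbours of the reductases on the chromosome mostly varied less than the AKR1C genes. Of 11 non-member entries starting within 1 Mb of the AKR1C genes, 10 were tested, and 0 passed the limma fit over all genes, nor did any have an unadjusted p below 0.05. Log2 fold changes ran from -0.27 to 0.09 with a median of -0.02. The neighbours with the smallest unadjusted p were GDI2, a regulator of Rab GTPases, at -0.27 (standard error 0.26), FAM208B at -0.27, NET1 at -0.11, and ASB13 at 0.09 (adjusted p = 1 for each). NET1 was between 99.3 and 119.9 TPM in all 6 libraries. The median ratio of highest to lowest library over these neighbours was 1.79, although CALML5, which was chosen after its values were seen, reached 12.9 from 0.442 to 5.70 TPM. Near the AKR1B genes 7 of 10 entries were tested, 0 passed and 0 had an unadjusted p below 0.05. All 7 log2 fold changes lay between -0.19 (CNOT4) and -0.01, where 36.3% of all tested genes were above 0. BPGM was at -0.11, SLC35B4 at -0.10 and CYREN at -0.06. AKR1B15, the closest relative of AKR1B10, stayed at or below 1.04 TPM and was blank in Vector 3.

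The other aldo-keto reductases were followed in the same fit. Of 12 listed, 8 were in the table and 5 tested, and by limma 0 passed over all genes and 0 had an unadjusted p below 0.05. AKR1A1, the general aldehyde reductase, was at 202, 126 and 157 TPM in Vector 1 to 3 and at 148, 201 and 122 TPM in CES2 1 to 3 (log2 fold change -0.05, standard error 0.25). AKR7A2, which reduces succinic semialdehyde, was at 95.7, 67.7 and 112.8 TPM in Vector 1 to 3 and at 69.9, 87.8 and 74.5 TPM in CES2 1 to 3 (log2 fold change -0.22, standard error 0.23). In both the groups overlapped widely, and CES2 3 was close to Vector 2. AKR7A3 (-0.19), KCNAB2 (0.34) and KCNAB3 (-0.29), the last 2 potassium channel beta subunits, stayed under 5 TPM.

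Other enzymes of the same substrates were followed in lists drawn from general knowledge, but with earlier results of these data known. Over all lists 115 distinct genes were tested. By limma 0 of them passed over all genes (adjusted p = 1 for each), and 2 had an unadjusted p below 0.05, PTGS2 and MAFF (1.09% of all tested genes had one). The groups did not overlap for 2 genes that were higher and 1 that was lower in CES2, together 2.61% of the listed genes. Over all tested genes the shares were 1.07% higher and 2.63% lower, together 3.7%. For the counts above and below 0 in each list that follows, 36.3% of all tested genes had a log2 fold change above 0.

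Of 12 carbonyl and quinone reductases, 6 had log2 fold changes above 0 and 6 below, with a median of 0.02. CBR1, a carbonyl reductase of prostaglandins and drugs, was at -0.13 (standard error 0.19), CBR3 at 0.30, CBR4 at -0.22 and the quinone reductase NQO1 at 0.26 (standard error 0.22). Among 13 tested genes of the aldehyde dehydrogenase family, most of which oxidize what the reductases reduce, 4 were above 0 and 9 below (median -0.11). ALDH1A3, which makes retinoic acid from retinal, was at 176, 275 and 205 TPM in Vector 1 to 3 and at 305, 223 and 328 TPM in CES2 1 to 3 (log2 fold change 0.39, standard error 0.23). Its lowest library was Vector 1, one of the highest for the AKR1C genes. The list as a whole did not share this. Its genes deviated from their means by a median of 0.18, -0.34 and 0.25 in Vector 1 to 3 and of 0.04, 0.10 and -0.12 in CES2 1 to 3. ALDH3A2 was at 0.16, ALDH9A1 at -0.17 and ALDH18A1 at -0.13.

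Steroid enzymes and receptors, the partners of the AKR1C enzymes in hormone metabolism, had 15 tested members with 7 above 0 and 8 below (median -0.04). SRD5A1, the reductase that produces dihydrotestosterone, was at 0.45 (standard error 0.25), and HSD17B1 at 0.41, HSD17B10 at 0.26 and HSD17B12 at -0.24. Retinoid genes, where AKR1B10 acts, had 17 tested members with 8 above 0 and 9 below (median -0.05). Log2 fold changes were 0.23 for RDH10, -0.32 for DHRS9 and -0.33 for RARB. Polyol and osmotic response genes, the setting of AKR1B1, had 8 tested members with 1 above 0 and 7 below (median -0.10). SORD, which turns sorbitol into fructose after AKR1B1, was at -0.22 (standard error 0.22), the fructose transporter SLC2A5 at -0.45, the osmotic regulator NFAT5 at -0.12 and the taurine transporter SLC6A6 at -0.31.

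Prostaglandin genes, where AKR1C3 and AKR1B1 act as prostaglandin F synthases, had 11 tested members with 3 above 0 and 8 below (median -0.06). PTGS2, the inducible cyclooxygenase, was at 6.21, 2.54 and 2.86 TPM in Vector 1 to 3 and at 15.7, 13.9 and 4.09 TPM in CES2 1 to 3 (log2 fold change 1.23, standard error 0.49, limma adjusted p = 1). CES2 3 lay below Vector 1, so the groups overlapped. PTGES2, a prostaglandin E synthase, was at 107, 169 and 152 TPM in Vector 1 to 3 and at 178, 169.8 and 204 TPM in CES2 1 to 3 (log2 fold change 0.38, standard error 0.21). Its groups did not overlap, but CES2 2 and Vector 2 were nearly equal. PTGES was at 0.22.

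NRF2 and its targets were listed without the AKR genes. Of 30 tested targets, 22 had a log2 fold change above 0 and 8 below, where 36.3% of all tested genes were above 0. The median of the targets was 0.08, beside -0.06 for all tested genes. The median became -0.08 without Vector 2 and 0.27 without Vector 1, so its sign was set by 1 library. By library, these targets deviated from their gene means by a median of 0.18, -0.51 and 0.03 in Vector 1 to 3 and of -0.05, 0.16 and 0.001 in CES2 1 to 3. Vector 2 was the lowest library for the targets as for the AKR1C genes. But it was the lowest by this median in 6 of the 9 lists, counting the targets themselves. The aldehyde dehydrogenases (-0.34) and the steroid genes (-0.34) were among the others. GCLC encodes the catalytic subunit of glutamate-cysteine ligase, an enzyme of glutathione synthesis. It was at 170, 119 and 179 TPM in Vector 1 to 3 and at 229, 200.5 and 198 TPM in CES2 1 to 3. Its log2 fold change was 0.44 (standard error 0.20), and its groups did not overlap. NQO1 was at 324, 201 and 297 TPM in Vector 1 to 3 and at 356, 313 and 298 TPM in CES2 1 to 3, a 1.77-fold range over the 6 libraries. Over the 30 targets this ratio of highest to lowest library ran from 1.18 to 8.17 with a median of 1.95. It was 15.3 for AKR1C1, 7.27 for AKR1C2, 7.05 for AKR1C3, 3.20 for AKR1B10 and 1.83 for AKR1B1. The widest of the 30 targets, chosen after its values were seen, was the aldehyde dehydrogenase ALDH3A1. It was at 540.5, 66.2 and 307 TPM in Vector 1 to 3 and at 159.7, 471 and 359.6 TPM in CES2 1 to 3. Its highest libraries were Vector 1 and CES2 2 and its lowest Vector 2. TRIM16L was at 0.41 and TRIM16 at -0.40. GSR, chosen after its values were seen, was the 1 target lower in CES2 without overlap.

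Of 11 tested NRF2 regulators, 6 were above 0 and 5 below (median 0.08). NFE2L2, the gene for NRF2 itself, was at 72.4, 127 and 259 TPM in Vector 1 to 3 and at 57.7, 63.3 and 214 TPM in CES2 1 to 3 (log2 fold change -0.53, standard error 0.58). Its lowest libraries, CES2 1, CES2 2 and Vector 1, were the highest for AKR1C1, AKR1C2 and AKR1C3. The transcript listed for NFE2L2 has 2 exons and only 455 bases, and whether the value covers the whole gene is not given. Vector 1 and CES2 2 also deviated together over all tested genes (correlation 0.68). A link between NFE2L2 and the AKR1C genes was not tested. MAFF, a small Maf partner of NRF2, was at 9.71, 17.9 and 6.405 TPM in Vector 1 to 3 and at 37.5, 17.7 and 15.9 TPM in CES2 1 to 3 (log2 fold change 1.01, standard error 0.42, limma adjusted p = 1). SQSTM1, which sequesters the NRF2 inhibitor KEAP1, was at 0.31 (standard error 0.18), and BTRC at -0.17. NRF2 protein and enzyme activity were not measured, and in bulk RNA fewer expressing cells cannot be told apart from less RNA per cell.

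**Figure D4:**
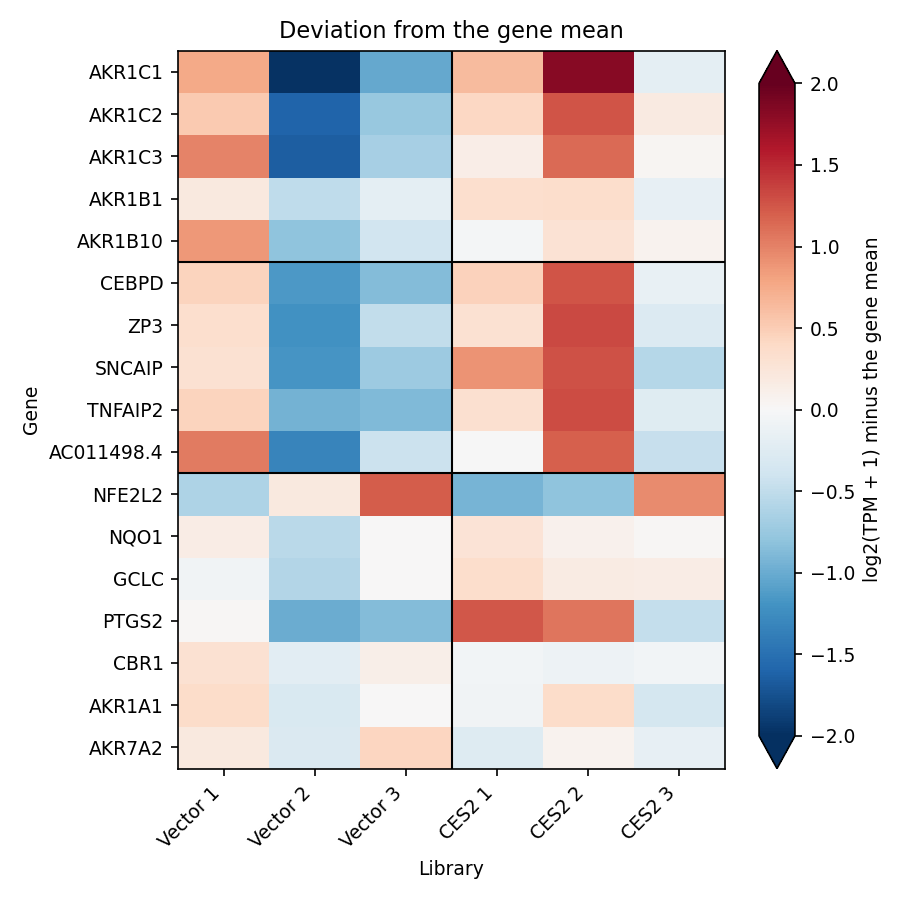
Deviation of log2(TPM + 1) from the mean of each gene in each library, from blue (lower) to red (higher), for the 5 reductases (top), the 5 genes most like AKR1C1 (middle) and 7 genes of the pathway lists (bottom); colours saturate at 2 either way. Vector 2 is blue and CES2 2 red in the AKR1C rows and in the middle block, while NFE2L2 is blue in Vector 1, CES2 1 and CES2 2.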

How the data were processed

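The authors deposited one table with a value per gene entry and library. Its unit is not named in the header, and TPM was inferred because each of the 6 deposited columns sums to between 999804 and 999893. Tools listed in the submitters' processing notes, with no role, are StringTie 1.3.3, HISAT2 2.1.0 and edgeR 3.0.8, and the builds hg38 and GRCh38. How reads matching several genes were counted, with which annotation, filters and strand setting, is not given in the sources used. Per the labels' protocols, ribosomal RNA was removed and libraries were strand-specific.

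Blanks (607 entries in at least 1 library) were read as 0. A gene was tested if 3 or more libraries had 1 TPM or more. On log2(TPM + 1) values, the groups were compared with limma 3.58.1 (R 4.3.3) with an intensity trend and Benjamini-Hochberg adjustment over all tested genes. A fold change on this scale understates the change of low genes. The fit was also run on simulated data whose libraries were drawn independently. Such data lack the correlated deviations between the real libraries, so nothing is read from that run. Members and lists were chosen with earlier results of these data known, and no list test was run. Named genes were the members, CES2, up to 4 genes with the smallest unadjusted p in each list and neighbourhood, other aldo-keto reductases at or above the median TPM of AKR1B1, and the 5 genes most like AKR1C1 and AKR1B1. Promoters came from RefSeq and transcripts from GENCODE release 29, and sequences were aligned with Biopython 1.88. Alternatives covered each library left out, a replicate block, median and quantile scaling, pseudocount 0.1, other filters, limma without the trend and library weights.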

Additional observations from a re-analysis of the deposited data

How the results depend on the processing

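The CES2 log2 fold change passed in each alternative run. The number of genes past the threshold stayed at 1 in the alternatives apart from 4 with library weights (whose estimate stopped before full convergence), 2 without Vector 1 and CES2 2 together (chosen after seeing the data), and 1 to 2 with single libraries left out (2 without CES2 3); none of the reductases was among them. The replicate numbers were not used as pairs: deviations of same-numbered libraries had correlations of 0.15, -0.52 and 0.37, and Vector 1 correlated best with CES2 2. With the replicate number as a block, 1 gene passed. The median of the NRF2 regulators ran from -0.044 (without Vector 2) to 0.12 with single libraries left out. The other differences and list medians moved by less than the spread between libraries under the alternatives run. Leaving out 1 of 3 libraries cannot move a member difference or the AKR1C1 share beyond that spread. The block cannot move a member difference at all, so these runs show no stability of the member differences. With single libraries left out, the AKR1C3 difference ran from 0.28 to 1.59, and the AKR1B10 difference changed sign without Vector 2. The list medians lie near 0, and 7 of 9 changed sign with a single library left out. Of these, 3 also did so under another alternative: with median rescaling the steroid, retinoid and prostaglandin medians were 0.023, 0.013 and 0.005. Depth is unknown, so no counting error can be given.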
